A study of Homo sapiens with 8 samples.

Results

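The CEP genes carry the name centrosomal protein and a number. They were chosen by name, as entries of the count table called CEP followed by a number and, in some, a closing letter and digit. Of 58302 entries, 33 were members, and 2 pseudogenes were left out. All 33 were annotated as protein coding and lay on 17 chromosomes.

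The libraries came from undifferentiated, untreated human pluripotent stem cells grown without feeder cells, with 100 to 1000 cells lysed for each library. From WTC11, a line of induced pluripotent cells, came 2 control libraries and 3 libraries labelled KIF3B-/-. From WA09, an embryonic stem cell line, came 2 control libraries and 1 library labelled KIF3A-/-, which leaves that group unreplicated. KIF3A and KIF3B are the motor subunits of kinesin-2, which carries cargo outward along the primary cilium. Controls were isogenic, and the labels number the guide RNA behind each library: WTC11 control 1 and KIF3B-/- libraries 1 and 2 belonged to guide 1, WTC11 control 2 and KIF3B-/- library 3 to guide 2, and the WA09 libraries to guide 1 of KIF3A. Whether the libraries of a group were separate clones or cultures is not in the labels, and if they were not, the p-values may reflect technical spread alone.

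The centrosome is a pair of centrioles in a protein matrix that nucleates microtubules, and the older centriole can become the base of a primary cilium. CEP proteins serve at many points of this cycle. Some build new centrioles, others form the appendages by which the mother centriole docks at the membrane, others sit in the cilium or in the satellites that carry material to the centrosome, and others tie the centrioles together or act when daughter cells separate. In pluripotent stem cells, which divide rapidly, centrioles are copied in each cell cycle.

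Totals ran from 2161890 to 2875163 counts per library, and the members took 0.138% to 0.155% of them. A count of 0 allows up to 3 counts, or 1.04 to 1.39 CPM, for counting error only. CPM are counts scaled to a common library total, here with TMM factors. KIF3A was at 33.1 CPM in the library labelled KIF3A-/- and at 68.3 and 61.8 CPM in its controls (log2 fold change -0.97 ± 0.35 SE, edgeR adjusted p = 1). KIF3B was at 49.3, 37.4 and 38.4 CPM in the libraries labelled KIF3B-/- and at 32.5 and 26.7 CPM in their controls (0.49 ± 0.34, edgeR adjusted p = 0.507). KIF3B RNA was thus not lower in the libraries labelled as its knockout, and every direction below is drawn between libraries as labelled. All 10 pluripotency markers were detected, with summed levels of 3558 to 5261 CPM, and the 8 mesendoderm markers summed to 9.12 CPM or less. The 7 fibroblast markers summed to 622 and 672 CPM in WTC11 controls, 544 to 961 in libraries labelled KIF3B-/-, 643 and 688 in WA09 controls and 661 in the library labelled KIF3A-/-, with LUM and DCN at 0 throughout. THY1, at 297 to 441 CPM, was the largest part of each of these sums, and COL3A1 held at most 1 count in a library. KIF3B-/- library 2 had the highest sum, with COL1A2 at 312 CPM against 118 to 165 in the other libraries. COL1A1 (124 CPM) and VIM (180 CPM) were also highest in that library. THY1 lay below both WTC11 controls (422 and 437 CPM) in every library labelled KIF3B-/-, at 362, 344 and 297 CPM. The part of this in the results below was not tested. The 6 neuroectoderm markers summed to 91.1 and 94.0 CPM in WTC11 controls, 108 to 151 in libraries labelled KIF3B-/-, 64.4 and 73.6 in WA09 controls and 90.4 in the library labelled KIF3A-/-, with SOX1 and NEUROG2 at 0 throughout. NES, at 62.0 to 137 CPM, made up most of these sums. The 8 multiciliated cell markers summed to 8.78 to 29.1 CPM, with MCIDAS, GMNC and TEKT1 at 0.

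In both lines, 3 CEP genes were higher in every knockout-labelled library than in the controls of that line: CEP128, CEP152 and CEP126. CEP128 is a subdistal appendage protein of the mother centriole, CEP152 is the scaffold that brings the kinase PLK4 to the centriole, and CEP126 is a satellite protein. The 3 were 9.09% of the members, against 5.13% of all 14216 genes tested. In the opposite direction, 0 members were lower in every knockout-labelled library, against 5.18% of all genes. None of the 3 passed the adjusted threshold of 0.05 in edgeR in any of the 5 comparisons made, so their values are given as measured and not as changes. The summed neuroectoderm markers were also higher in every knockout-labelled library than in the controls of its line, and their part in these values was not tested. The promoters of the 3 are shown because they are the sequences around an annotated start of each gene described here. They come from RefSeq on GRCh38.p14 and run 5′ to 3′ from 250 bases before to 50 bases after the annotated start. CEP126 lies at chr11:101914760-101915059 on the plus strand, CEP128 at chr14:80941689-80941988 on the minus strand and CEP152 at chr15:48811020-48811319 on the minus strand. Capitals mark 5 motifs where present: the CCAAT box (CCAAT), the GC box (GGGCGG), the CHR element (TTTGAA), the E2F core (TTCCCGC) and the core of an RFX site (GTTGCCA), each on either strand.
CEP126: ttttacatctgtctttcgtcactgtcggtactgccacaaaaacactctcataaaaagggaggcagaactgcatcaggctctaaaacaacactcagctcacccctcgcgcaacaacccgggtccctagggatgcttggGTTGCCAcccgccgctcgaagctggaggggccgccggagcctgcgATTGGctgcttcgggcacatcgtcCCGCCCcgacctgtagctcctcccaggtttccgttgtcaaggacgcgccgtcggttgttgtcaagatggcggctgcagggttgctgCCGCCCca
CEP128: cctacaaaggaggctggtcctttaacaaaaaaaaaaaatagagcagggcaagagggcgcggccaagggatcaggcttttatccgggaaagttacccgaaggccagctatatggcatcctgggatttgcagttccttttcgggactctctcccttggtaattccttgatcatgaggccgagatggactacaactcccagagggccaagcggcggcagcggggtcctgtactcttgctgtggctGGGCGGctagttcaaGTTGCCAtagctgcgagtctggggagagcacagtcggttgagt
CEP152: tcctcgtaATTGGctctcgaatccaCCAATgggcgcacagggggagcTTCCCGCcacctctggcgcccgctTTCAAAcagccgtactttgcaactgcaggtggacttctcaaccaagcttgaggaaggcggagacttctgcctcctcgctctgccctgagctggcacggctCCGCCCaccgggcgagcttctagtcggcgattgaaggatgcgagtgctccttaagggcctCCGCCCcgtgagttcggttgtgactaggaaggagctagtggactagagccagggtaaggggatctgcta

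CEP126 and CEP128 each held the RFX core, the first at position 138 and the second at position 258, counted from 1 at the 5′ end of the window. RFX factors are known as regulators of ciliary genes. CEP152 held the E2F core at position 48 and the CHR element at position 72, which are known from promoters of cell cycle genes, beside 2 CCAAT boxes and 2 GC boxes. RefSeq gave 39 promoters for 30 of the 33 members, and there was no entry for CEP170B, CEP250 and CEP78. The RFX core was in 15.4% of the members' promoters and in 4.08% of all 35116 promoters of that length, and its holders were CEP112, CEP126, CEP128, CEP41, CEP57 and CEP89. The E2F core was in 25.6% against 6.55%, the CHR element in 35.9% against 15.2%, the CCAAT box in 48.7% against 34.6% and the GC box in 64.1% against 45.0%. An E2F core followed by CC also holds a GC box on the other strand, so these 2 motifs can overlap. The TATA box (TATAAA) was in 5.13% against 11.5%, and the NRF1 core (GCATGCGC) was in 0 of the 39 against 3.05%. The median GC content was 61.3% for the members' promoters and 58.7% for all. These matches describe letters in a window, and several members have more than 1 promoter in RefSeq. Some windows of 1 gene overlap, as those of CEP76 do, so the same site can be counted more than once. By gene, the RFX core was in 6 of 30 members, the E2F core in 9, the CHR element in 13, the CCAAT box in 17 and the GC box in 23. The shares over all promoters were not counted by gene.

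**Figure D1:**
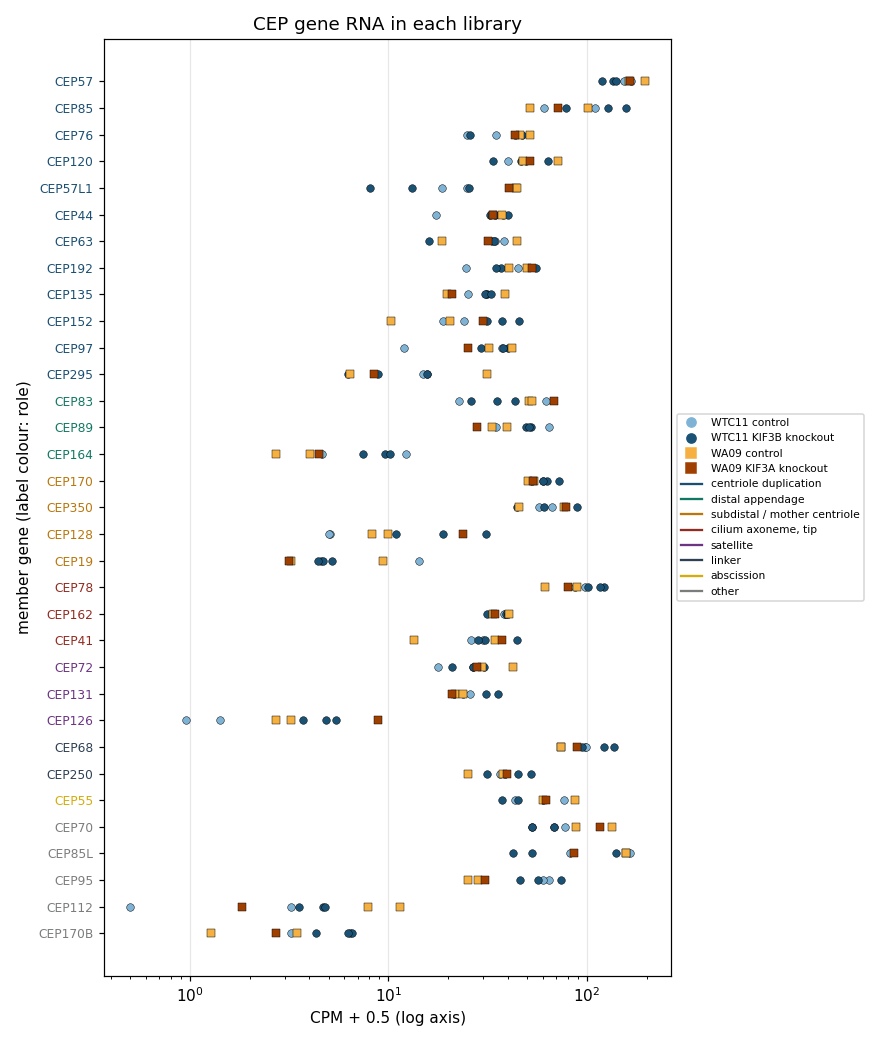
Level of each of the 33 CEP genes in each of the 8 libraries, as CPM + 0.5 on a log axis, with label colours for roles and 1 point per library. CEP57 lies at the high end with 119 to 196 CPM, and CEP126, CEP112 and CEP170B lie at the low end.

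All 33 members passed the filter on low counts, and CEP112 in WTC11 control 1 was the only count of 0. Levels of different genes were compared per kilobase of the longest transcript, as the mean of the 4 group means. CEP57, a matrix protein that works with CEP63 and CEP152, had the highest level at 49.8 CPM per kilobase. It was followed by CEP70 at 32.6, CEP55 at 22.8, CEP85 at 22.3 and CEP68 at 16.1. The ranges over libraries of CEP57 (37.3 to 61.7 CPM per kilobase) and CEP70 (19.1 to 49.0) overlapped, and those of CEP55 (14.0 to 32.9) and CEP85 (13.0 to 39.7) overlapped widely. The lowest were CEP170B at 0.50, CEP126 at 0.56, CEP164 at 1.03, CEP112 at 1.12 and CEP295 at 1.58. CEP170B (0.115 to 0.893) and CEP126 (0.0644 to 1.19) could not be ordered beyond their spread over libraries. The median member was at 7.01 CPM per kilobase.

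Among the 12 centriole duplication genes, CEP57 was the most and CEP295 the least abundant per kilobase. CEP295, needed for a new centriole to mature into a centrosome, was at 15.1 and 14.5 CPM in WTC11 controls, 8.40, 15.2 and 5.75 in libraries labelled KIF3B-/-, 5.89 and 30.7 in WA09 controls and 7.94 in the library labelled KIF3A-/-. Its WA09 controls differed more from each other than any group means did. The other roles are given as ranges over libraries in CPM per kilobase. Of the 3 distal appendage genes, CEP83 ran from 5.89 to 18.0 and overlapped CEP89 (4.82 to 11.3), while CEP164, which recruits the kinase that starts cilium assembly, ran from 0.390 to 2.07, below both. Of the 4 subdistal appendage and mother centriole genes, CEP170 ran from 7.32 to 10.5, above the other 3, and CEP19 (1.20 to 6.25) had the lowest mean but overlapped CEP128 (0.972 to 6.55). Of the 3 genes listed here under cilium axoneme and tip, CEP78 (5.47 to 10.8) and CEP162 (5.99 to 7.76) overlapped. CEP41, which acts in tubulin glutamylation, had the lowest mean of these, with 1.99 to 6.74. Of the 3 satellite genes, CEP72 (7.08 to 17.2) and CEP131 (5.52 to 9.59) overlapped, and CEP126 lay below both. Of the centrosome linker genes, CEP68 (12.5 to 23.3) lay above CEP250 (1.58 to 3.30). CEP55, which recruits the abscission machinery to the midbody, held 37.0 to 86.7 CPM. The other 5 members were CEP70, CEP85L, CEP95, CEP112 and CEP170B.

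Libraries labelled KIF3B-/- were compared with WTC11 controls. In edgeR, 0 of 33 members passed the adjusted threshold, and 0 of 14216 genes did (0% called). At an unadjusted p below 0.05, 2 members, CEP128 and CEP126, were higher and 0 lower, which was 6.06% of the members against 16.6% of all genes. DESeq2 called 0 members, with the adjusted p missing for 7 members, CEP126 and CEP128 among them, and 1.79% of all genes. Without the filter on low counts, edgeR called 1 member, CEP128, and 2.56% of all genes. In all 3 libraries labelled KIF3B-/-, 6 members (18.2%) lay above both controls, against 16.5% of all genes: CEP112, CEP126, CEP128, CEP152, CEP170 and CEP78. CEP57 and CEP63, which form a ring around the parental centriole with CEP152, lay below both controls, against 18% of all genes.

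CEP128 was at 4.58 and 4.53 CPM in the controls and at 18.3, 10.4 and 30.5 CPM in the libraries labelled KIF3B-/-. Controls held 10 counts each and those libraries 48, 24 and 85, so the groups did not overlap, while library 2 and library 3 differed widely. CEP128 (ENSG00000100629, GRCh38 chromosome 14, 80476983 to 80959517, minus strand) had a log2 fold change of 2.11 ± 0.58 (edgeR adjusted p = 0.175).

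CEP126 was measured by few reads. Its counts were 2 and 1 in the WTC11 controls and 13, 10 and 9 in the libraries labelled KIF3B-/-. The ratio of summed levels was 6.08, with a 95% counting interval of 1.90 to 31.0 that covers counting error only. The edgeR log2 fold change was 2.52 ± 1.05 (edgeR adjusted p = 0.267). CEP152 was at 18.3 and 23.6 CPM in controls and 44.7, 30.8 and 36.7 CPM in libraries labelled KIF3B-/- (0.84 ± 0.39, edgeR adjusted p = 0.321). CEP57, at 153 and 167 CPM in controls and 135, 139 and 119 CPM in libraries labelled KIF3B-/-, was the next member by p (-0.29 ± 0.14, edgeR adjusted p = 0.346). The small difference stood beside a low spread within each group. CEP85L followed (-0.66 ± 0.46, edgeR adjusted p = 0.502), with overlapping groups, and its value ran from -1.37 to -0.06 when each library was left out in turn.

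**Figure D2:**
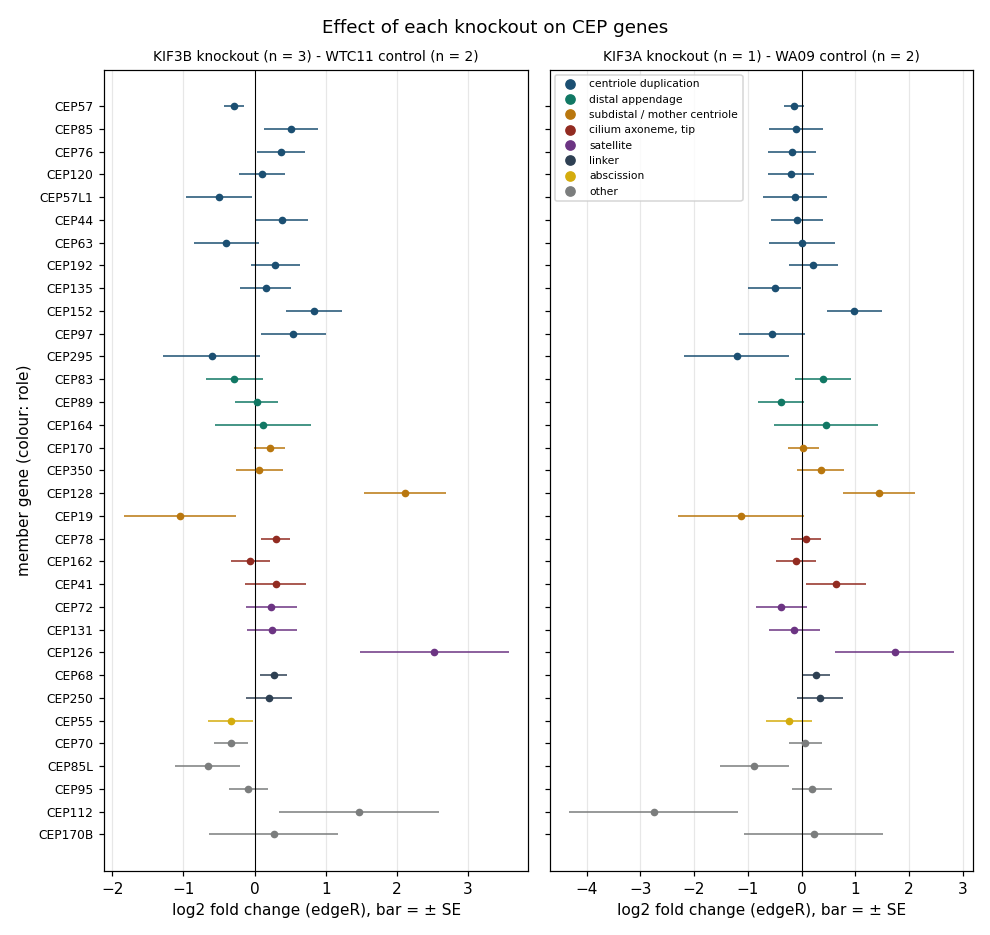
Log2 fold change ± SE (edgeR) of each CEP gene, for libraries labelled KIF3B-/- against WTC11 control on the left and the library labelled KIF3A-/- against WA09 control on the right, coloured by role. CEP126, CEP128 and CEP152 lie above 0 by more than 2 SE in the left panel, and the SE of these genes is larger in the right panel.

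The members as a set had a median log2 fold change of 0.20 in libraries labelled KIF3B-/- against 0.03 over all genes. Of the members, 22 of 33 (66.7%) were above 0, against 51.7% of all genes. The members are long: their longest transcripts had a median of 5562 bases against 3585 over all genes tested, and 26 of 33 exceeded the latter. In this comparison the log2 fold change moved with transcript length over all genes (Spearman 0.35 across 14199 genes, which are not independent replicates). After the trend of each library with length was removed, Spearman was 0.03, the members' median was -0.05 and 14 of 33 were above 0. CEP128 was then at 1.92, CEP126 at 2.29 and CEP152 at 0.63. Without KIF3B-/- library 3 the members' median was 0.074.

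**Figure D3:**
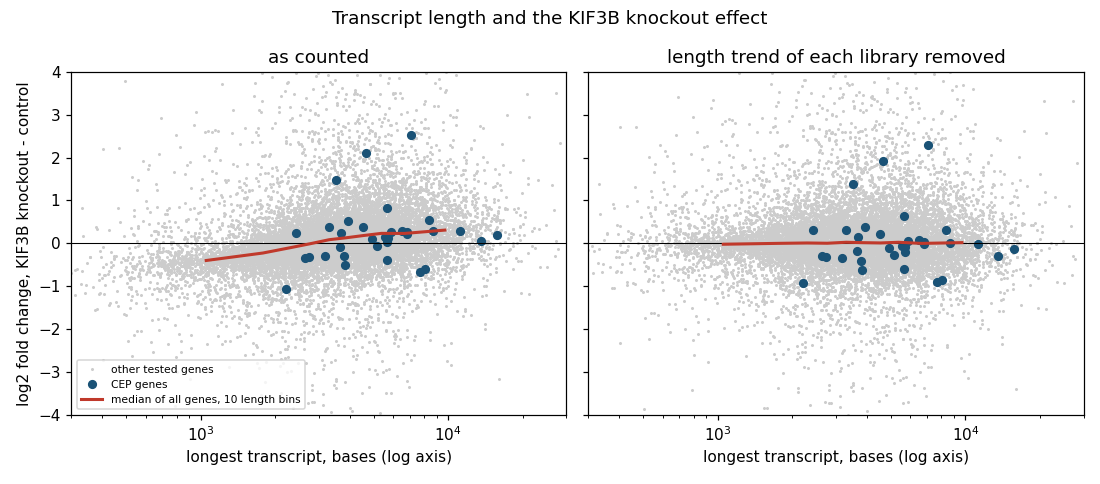
Log2 fold change in libraries labelled KIF3B-/- against WTC11 control (y axis) by length of the longest transcript in bases (x axis, log), with CEP genes in blue, other tested genes in grey and the median of all genes in 10 length bins in red. The red line climbs with length as counted and is flat after the length trend of each library was removed. Genes beyond the axis limits are not shown.

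The library labelled KIF3A-/- was compared with the WA09 controls. In edgeR, 0 of 33 members passed the threshold, as did 0% of all genes, and at an unadjusted p below 0.05 there were 0 members against 3.71% of all genes. This library lay above both controls in 11 members (33.3%, against 33.8% of all genes) and below both in 9 (27.3%, against 33% of all genes). The members' median log2 fold change was -0.08, against -0.02 over all genes. CEP128 was at 9.42 and 7.77 CPM in controls and at 23.4 CPM in the library labelled KIF3A-/- (1.44 ± 0.67, edgeR adjusted p = 1). CEP152 was at 9.81 and 19.98 CPM in controls and at 29.6 CPM (0.98 ± 0.51, edgeR adjusted p = 1). CEP126 was at 2.75 and 2.22 CPM in controls and at 8.38 CPM, from 7, 6 and 19 counts (1.73 ± 1.11, edgeR adjusted p = 1). CEP112 was at 10.99 and 7.40 CPM in controls and at 1.32 CPM (-2.75 ± 1.58, edgeR adjusted p = 1). It rested on 3 counts in the library labelled KIF3A-/- against 28 and 20 in the controls. The ratio to both controls summed was 0.145, with a 95% counting interval of 0.0288 to 0.449. CEP85L was at 157 and 157 CPM in controls and at 85.6 CPM (-0.88 ± 0.63, edgeR adjusted p = 1).

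**Figure D4:**
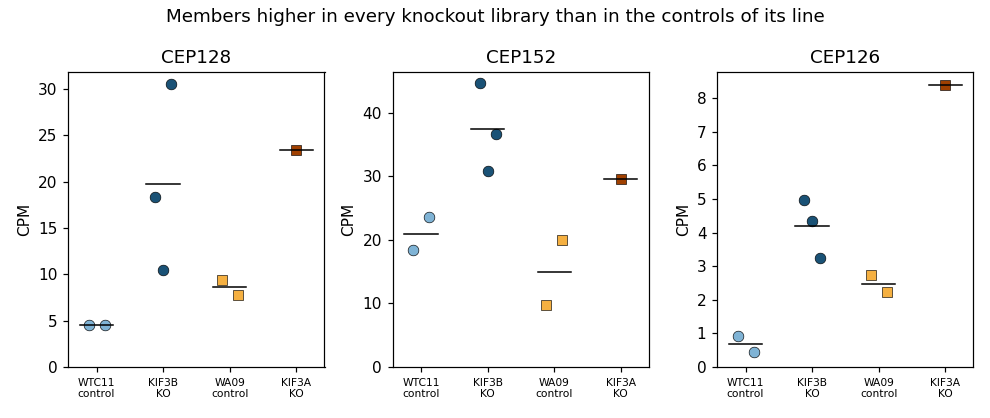
CPM of CEP128, CEP152 and CEP126 in each library of the 4 groups, with 1 point per library and a line at the group mean. In each panel every knockout-labelled library lies above the controls of its line, and for CEP128 and CEP126 the WTC11 controls are also below the WA09 controls.

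With the 4 knockout-labelled libraries set against the 4 controls, and line as an additive term, 0 of 33 members passed the threshold, as did 0% of the 13238 genes tested. At an unadjusted p below 0.05, 3 members were higher and 0 lower (9.09%), against 8.59% of all genes. These were CEP128 (1.85 ± 0.44, edgeR adjusted p = 0.528), CEP152 (0.89 ± 0.30) and CEP126 (2.17 ± 0.77), the last 2 at an edgeR adjusted p of 0.565. The next by p were CEP85L (-0.73 ± 0.35, edgeR adjusted p = 0.586) and CEP57 (-0.23 ± 0.12, edgeR adjusted p = 0.602). Without the filter on low counts, edgeR called 2 members, CEP128 and CEP85L, and 0.584% of all genes. The members' median was 0.12 against 0.01 over all genes, and 0.014 after the length trend was removed.

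The 2 effects were also set against each other, as the KIF3A effect minus the KIF3B effect, which cannot be told apart from a difference between the lines. In edgeR, 0 of 33 members passed (0% of all genes), and 0 members had an unadjusted p below 0.05, against 9.3% of all genes. CEP112 had the smallest p (-4.22 ± 1.94, edgeR adjusted p = 0.542). It was the 1 member (3.03%) above both controls in the libraries labelled KIF3B-/- and below both in the library labelled KIF3A-/-, against 5.66% of all genes. Its counts were 0 and 6 in WTC11 controls and 11, 7 and 12 in libraries labelled KIF3B-/-, against 28 and 20 in WA09 controls and 3 in the library labelled KIF3A-/-. The next were CEP97 (-1.10 ± 0.76), CEP135 (-0.66 ± 0.62), CEP83 (0.68 ± 0.66) and CEP70 (0.40 ± 0.39), with edgeR adjusted p from 0.666 to 0.780. CEP97 caps centrioles with CP110, CEP135 is a structural protein of the centriole wall and CEP83 lies at the base of the distal appendages. Without WTC11 control 1 the CEP83 value turned to -0.24. For CEP128 the effects differed by -0.67 ± 0.89 and for CEP152 by 0.15 ± 0.64, each smaller than its SE, and the CEP152 value ran from -0.28 to 0.75 when each library was left out in turn, which does not show that the effects were alike.

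The controls of the lines were then compared, as WTC11 minus WA09. In edgeR, 0 of 33 members passed, against 0.0281% of all genes. At an unadjusted p below 0.05 there was 1 member higher and 2 lower in WTC11 (9.09%), against 15% of all genes. Both WTC11 controls lay above both WA09 controls in 4 members (12.1%, against 23.6% of all genes), and below both in 7 (21.2%, against 23.6% of all genes). CEP95 was at 64.2 and 59.8 CPM in WTC11 controls and at 24.7 and 27.8 CPM in WA09 controls (1.24 ± 0.30, edgeR adjusted p = 0.151). Its libraries labelled KIF3B-/- (45.4, 73.8 and 56.1 CPM) and KIF3A-/- (29.99 CPM) stayed on the side of their line, and without the filter edgeR called CEP95, with 1.99% of all genes. CEP95 (ENSG00000258890, GRCh38 chromosome 17, 64506588 to 64542461, plus strand) overlaps exons of DDX5 and SMURF2 on the other strand. DDX5 was also higher in WTC11 controls, at 617 and 635 CPM against 468 and 477 (0.41 ± 0.09, edgeR adjusted p = 0.131, DESeq2 adjusted p = 0.0349). SMURF2 lay the other way, at 41.3 and 37.2 CPM against 47.9 and 45.9 (-0.26 ± 0.27, edgeR adjusted p = 0.697). Use of strand in the counting is not given in the sources used here, so the gene behind reads in the overlapping exons cannot be told. CEP70, which binds gamma-tubulin, was at 76.5 and 68.0 CPM against 134 and 87.7 (-0.62 ± 0.26, edgeR adjusted p = 0.305). CEP112 (-2.71 ± 1.19, edgeR adjusted p = 0.328, with 6 counts against 48 and a ratio of 0.150 with a 95% counting interval of 0.0523 to 0.350), CEP57L1 (-1.04 ± 0.50, edgeR adjusted p = 0.376) and CEP76, which limits centriole copying (-0.71 ± 0.36, edgeR adjusted p = 0.400), were next. Of the 3 genes above the controls in both lines, CEP126 and CEP128 were also lower in both WTC11 controls than in both WA09 controls. The WTC11 controls enter both comparisons, so these values are not independent of each other.

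In all, 13 members overlap exons of a gene on the other strand, among them CEP76 (PSMG2), CEP63 (ANAPC13), CEP68 (RAB1A), CEP44 (FBXO8) and CEP295 (TAF1D). Their levels are uncertain in the same way where that gene held counts. CEP63, below both controls in the libraries labelled KIF3B-/-, was at 33.9 and 37.6 CPM in WTC11 controls and 32.8, 33.4 and 15.5 CPM there. ANAPC13 was at 172 and 158 CPM in these controls and at 139, 104 and 121 CPM in the libraries labelled KIF3B-/-, so both were lower there. CEP128 and CEP126 had no such overlap, and the antisense genes over CEP152 held at most 2 counts in a library. Those over CEP131, CEP164, CEP170 and CEP250 held at most 1.

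CEP genes include 3 pairs of close relatives. CEP85, which binds STIL in centriole assembly, and CEP85L were negatively correlated over the 8 libraries (Pearson r = -0.78, exact permutation p = 0.0277, adjusted over the 3 pairs 0.0416, and Spearman rho = -0.86, exact permutation p = 0.0107, adjusted 0.0321, both two-sided). The permutations took all orders of the 8 libraries without regard to group, so each permutation p also takes in differences between groups. No p was computed within groups. Within groups, over the 7 libraries with a replicate, r was -0.74, and without the 2 libraries farthest from the median it was -0.66. Their r was the 20th lowest of the 528 pairs of members. CEP85 was at 109 and 60.3 CPM in WTC11 controls, 127, 77.8 and 156 in libraries labelled KIF3B-/-, 101 and 51.1 in WA09 controls and 70.6 in the library labelled KIF3A-/-. CEP85L was at 81.1 and 163, at 42.0, 139 and 52.1, at 157 and 157, and at 85.6 CPM in the same order. Replicates of 1 group therefore fell at both ends, and the ratio of CEP85 to CEP85L ran from 0.325 to 3.03. CEP57 and CEP57L1 had r = 0.80 (exact permutation p = 0.0172, adjusted 0.0416) but rho = 0.57 (exact permutation p = 0.151, adjusted 0.151), and r within groups was 0.35. CEP57L1 was at 24.3 and 18.1 CPM in WTC11 controls, 24.8, 12.6 and 7.55 in libraries labelled KIF3B-/-, 43.6 and 43.7 in WA09 controls and 40.1 in the library labelled KIF3A-/-. CEP170 and CEP170B had r = 0.63 (exact permutation p = 0.0899, adjusted 0.0899) and rho = 0.57 (exact permutation p = 0.151, adjusted 0.151), and r within groups was 0.11.

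**Figure D5:**
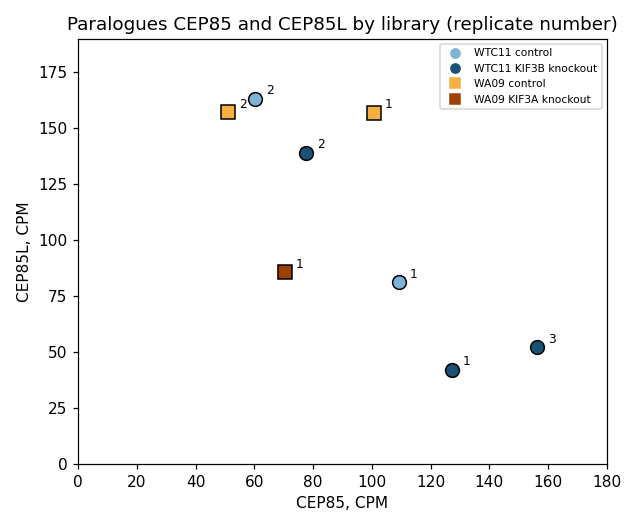
CEP85 (x axis) against CEP85L (y axis) in CPM, with 1 point per library numbered by replicate and coloured by group. CEP85L tends to be lower where CEP85 is higher, with exceptions such as WA09 control 1 (101 CPM of CEP85 and 157 of CEP85L), and replicates of 1 group lie at both ends.

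Genes that work with the CEP proteins were taken from 5 lists of 84 genes, of which 81 were tested. In edgeR, 0 of the 81 passed the threshold in any of the 5 comparisons. DESeq2 called STIL for KIF3B-/- (adjusted p = 0.0428), with 1.79% of all genes, and ANLN between the lines (adjusted p = 0.0131). Without the filter on low counts, edgeR called STIL, CCNF, TUBGCP2, ANLN, CETN3 and HAUS1 for KIF3B-/-, with 2.56% of all genes. It called CCNF for all knockout-labelled libraries, with 0.584% of all genes, and ANLN for the difference of the effects. Between the lines it called ANLN, ECT2 and PLK4, with 1.99% of all genes. The number of all genes called in each of these settings is given at the end. At an unadjusted p below 0.05, 14 of 81 differed in libraries labelled KIF3B-/-, 7 higher and 7 lower, where all genes gave 16.6%. Above 0 there lay 39 of the 81, with a median log2 fold change of -0.05. By list, this held for 10 of 22 centriole duplication partners and 2 of 8 satellite and linker partners. Of 22 centriole duplication partners, STIL, which builds the cartwheel, was at 55.9 and 77.9 CPM in WTC11 controls and 108, 133 and 135 CPM in libraries labelled KIF3B-/- (0.90 ± 0.25, edgeR adjusted p = 0.175). CCNF, the F-box protein that limits CP110, was at 134 and 174 CPM and 215, 207 and 285 CPM (0.62 ± 0.18, edgeR adjusted p = 0.177). CETN3, a centrin, was in the opposite direction in the comparison of all knockout-labelled libraries with all controls (-0.61 ± 0.19, edgeR adjusted p = 0.555). PLK4, the kinase that CEP152 brings to the centriole, was at 252 and 155 CPM in WA09 controls and 132 CPM in the library labelled KIF3A-/- (-0.62 ± 0.29, edgeR adjusted p = 1). Of 17 tested appendage and cilium partners, 14 were above 0 in libraries labelled KIF3B-/-, against 51.7% of all genes. Their median there was 0.48, and 0.21 after the length trend was removed. SCLT1, a distal appendage protein, was in the opposite direction there (-0.78 ± 0.27, edgeR adjusted p = 0.207), and RABL2A rested on 0 and 2 counts in the WTC11 controls. For all knockout-labelled libraries against all controls, INPP5E, a ciliary lipid phosphatase, had 1.26 ± 0.56 (edgeR adjusted p = 0.579), and for the library labelled KIF3A-/-, FGFR1OP had 0.62 ± 0.35 and KIF24 -2.33 ± 1.43 (both edgeR adjusted p = 1). KIF24 rested on 2 counts there against 20 and 4 in the WA09 controls. The ratio to both controls summed was 0.193, with a 95% counting interval of 0.0221 to 0.777 that covers counting error only. The KIF24 value ran from -3.08 to -0.72 when each library was left out in turn. Of the 8 satellite and linker partners, CCDC66 (-0.74 ± 0.24, edgeR adjusted p = 0.190) and PCM1, the scaffold of the satellites (0.37 ± 0.13, edgeR adjusted p = 0.202), had the smallest p in libraries labelled KIF3B-/-. CROCC, which forms the rootlet, had 1.63 ± 0.62 and BBS4 -0.26 ± 0.26 in the library labelled KIF3A-/- (both edgeR adjusted p = 1).

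Of 18 tested genes of the pericentriolar matrix, TUBGCP2 and TUBGCP3, subunits of the gamma-tubulin complex, had the smallest p in the libraries labelled KIF3B-/-. Both were higher, but only 6 of the 18 lay above 0 there. The median of the 18 was -0.20, and -0.23 after the length trend was removed. TUBGCP2 was at 44.5 and 48.5 CPM in WTC11 controls and 79.1, 71.2 and 121 CPM there (0.96 ± 0.28, edgeR adjusted p = 0.179), and TUBGCP3 at 33.9 and 45.3 and at 61.1, 76.9 and 71.5 CPM (0.82 ± 0.25, edgeR adjusted p = 0.181). TUBGCP4 was lower in the library labelled KIF3A-/-, at 11.5 CPM against 37.3 and 27.0 CPM in its controls (-1.48 ± 0.49, edgeR adjusted p = 1). Of 16 tested abscission and mitotic partners, PDCD6IP, which CEP55 recruits, had 0.48 ± 0.21 and ANLN 0.53 ± 0.24 in libraries labelled KIF3B-/- (edgeR adjusted p = 0.295 and 0.312). Above 0 there lay 7 of the 16, with a median of -0.06, and -0.01 after the length trend was removed. In the library labelled KIF3A-/-, ANLN had -0.73 ± 0.33 and TOP2A -0.28 ± 0.15 (both edgeR adjusted p = 1). MKI67 had 0.47 ± 0.21 for all knockout-labelled libraries against all controls (edgeR adjusted p = 0.581).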

How the data were processed

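RNA-seq of 8 libraries was compared over genes. The authors deposited raw read counts for each gene. Per the submitters' processing notes, STAR and hg38 were used. Not given in the sources used here are the gene counter, its annotation and whether it used strand. Totals ran from 2161890 to 2875163 counts. GENCODE 29 (GRCh38) gave gene positions and lengths, matched by identifier for 58039 of 58302 entries, and 20993 entries had no gene name in the table. All 5 pairs of replicates differed beyond sampling noise (chi-square over its degrees of freedom: 6.11 to 8.84) and were used as separate libraries.

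Counts were tested with edgeR 4.0.16 (quasi-likelihood, robust, TMM, filterByExpr) in R 4.3.3, with Benjamini-Hochberg adjustment over all genes tested and a threshold of 0.05. All knockout-labelled against all control libraries was fitted with line as a term, and the other 4 comparisons were contrasts of 1 fit with a mean per group. The lone KIF3A-/- library was assumed to vary like the others. The steps were tested on simulated data. The alternatives were DESeq2 1.42.0 and its size factors, voom in limma 3.58.1, no filter, the guide number as a term, each library left out, and the trend of each library with length (lowess, span 0.3) removed through offsets. An adjusted p that DESeq2 gave as missing was kept missing. The counting intervals are exact (Clopper-Pearson) at 95%. For paralogues, log2(CPM + 0.5) was correlated.

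The members and the lists were chosen with earlier results of these data known. In each comparison, members past the threshold were to be named, or else the 5 with the smallest p, with the 5 highest and lowest per kilobase, the extremes of each role, the paralogues and 2 partners of each list. CEP63, HAUS1 and ECT2, named beyond this rule, were chosen after their values were seen. 2 genes of the name pattern are not reported here and enter only the fits over all genes.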

Additional observations from a re-analysis of the deposited data

Results flagged for a closer look

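CEP112 lay in opposite directions in the 2 lines: each library labelled KIF3B-/- lay above both of its controls, and the library labelled KIF3A-/- lay below both of its controls. The same pattern was in 5.66% of all genes. KIF3B-/- library 2, at 3.04 CPM, was close to WTC11 control 2, at 2.72 CPM. Neither comparison passed the threshold in edgeR (adjusted p = 0.552 for KIF3B-/- and 1 for KIF3A-/-). The difference of the effects was -4.22 ± 1.94 SE on the log2 scale (edgeR adjusted p = 0.542). Its counts ran from 0 to 28 per library. With each library left out in turn the difference ran from -9.03 to -3.25, and the lowest value came without the 1 WTC11 control that held any counts.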

How the results depend on the processing

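Few CEP counts limit precision: CEP126, CEP170B, CEP112, CEP19 and CEP164 had fewer than 20 counts in most libraries, and 1 library stands for KIF3A-/-. Without a filter on low counts, edgeR called 154 genes for all knockout-labelled against all controls, 676 for KIF3B-/-, 2 for KIF3A-/-, 160 for the difference of the effects and 525 between the lines, with 2, 1, 0, 0 and 1 members among them. DESeq2 called 35, 255, 1, 17 and 218 genes, with 0 members. Its adjusted p was missing for some members for KIF3B-/-, for the difference and between the lines. CEP126 and CEP170B were among them in each. Between the lines, the count of genes was 4 in edgeR and 0 with DESeq2 size factors, with voom and with the replicate block. The members' median with the length trend removed was 0.014 for all knockout-labelled libraries, -0.053 for KIF3B-/- and 0.072 for the difference, and with voom it was 0.055 between the lines. The CEP83 difference ran from -0.24 without WTC11 control 1 to 1.24 without WTC11 control 2. The CEP152 difference ran from -0.28 without WA09 control 1 to 0.75 without WA09 control 2, and was -0.048 without WTC11 control 2. Among the values of named genes under each alternative, these 3 reversed, while 817 kept their direction and side of the threshold and 11 now passed it. The cause of these shifts was not tested.

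With each library left out, the members' median ran from 0.012 to 0.19 for all knockout-labelled libraries, 0.074 to 0.20 for KIF3B-/-, -0.079 to 0.021 for KIF3A-/-, -0.25 to -0.077 for the difference and -0.30 to 0.047 between the lines. Genes called ran from 0 to 0, 0 to 5, 0 to 1, 0 to 1 and 0 to 1, and members called were 0 throughout. Leaving out the KIF3A-/- library gives no value for that effect or the difference. With the replicate block (guide number as a term), 1 gene was called for KIF3B-/-, and the median of the difference was -0.21. It changed no call of a member. Deviations of same-guide libraries from their group means correlated at 0.107, -0.110 and -0.0155. The deviations of both WTC11 controls mirror each other, so these values are tied and cannot decide whether the guide numbers pair the libraries.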
